A study of Mus musculus with 2 samples.

Results

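Wfdc17, Nov and Dhrs3 are 3 of the 27998 genes counted in a pair of single-cell libraries of mouse leukaemia cells. They were chosen by their ratio between the libraries, as genes strongly higher in the Jumonji library, so that ratio is given here as a description with no test. What the choice did not use is how, within each library, the transcripts were spread over cells, whether the same cells held all 3, and what else those cells held.

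The cells were mouse primary leukaemia cells that carry the MLL-AF9 fusion, an oncoprotein that drives acute myeloid leukaemia, together with Cas9, a nuclease directed by a single guide RNA (sgRNA). For the Jumonji library the cells had an sgRNA directed at the Jumonji domain of Jmjd1c, which encodes a JmjC-type histone demethylase. For the Renilla library the sgRNA was directed at Renilla luciferase, which the mouse genome lacks. Both cultures grew in RPMI with 10 ng/ml mIL3, mouse interleukin-3, and both carry the fusion and Cas9. The labels give neither the strain or age of the donor mice, nor the time after the sgRNA was introduced, nor whether the cells were 1 clone. Each group has 1 library, so cells are not replicates, no test between the groups is given, and every interval below is a 95% interval that covers counting error only. Guide, culture and library preparation cannot be told apart.

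Wfdc17 encodes a small secreted protein with a whey acidic protein (WAP) domain, a fold shared with protease inhibitors such as Slpi, and in mice it is known from activated macrophages and microglia. Nov, also called Ccn3, encodes a secreted matricellular protein of the CCN family that binds integrins and Notch receptors and is known for a role in haematopoietic stem cells. Dhrs3 encodes a short-chain dehydrogenase that reduces retinaldehyde to retinol; retinoic acid, made from the same retinaldehyde, is known to raise its transcription.

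The 3 genes lie on different chromosomes, all on the plus strand of mm10 and all protein coding. Wfdc17 (ENSMUSG00000069792) spans chromosome 11, 83703991 to 83706268, Nov (ENSMUSG00000037362) spans chromosome 15, 54745702 to 54754039, and Dhrs3 (ENSMUSG00000066026) spans chromosome 4, 144892827 to 144928209. No annotated gene overlapped any of them. Of the 31-base words in their annotated transcripts, none of 503 for Wfdc17, 39 of 2819 for Nov and none of 3001 for Dhrs3 also occurred in a transcript of another gene, and none of those 39 lay in the last 300 words of Nov, nearest to the 3′ end that the assay reads.

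Because the 3 genes were high in the same library, the sequences around their starts are shown, as RefSeq gives them on GRCm38.p6 (250 bases before the start to 50 from it on, plus strand). RefSeq promoters were matched for 2 of the 3 genes, 1 window for Wfdc17 and 3 windows for Dhrs3, the second of which overlaps both others. The first Dhrs3 window is shown, and its RefSeq start is the annotated start of the gene. Capitals mark matches to the motifs searched.
Wfdc17, chr11:83703806-83704105: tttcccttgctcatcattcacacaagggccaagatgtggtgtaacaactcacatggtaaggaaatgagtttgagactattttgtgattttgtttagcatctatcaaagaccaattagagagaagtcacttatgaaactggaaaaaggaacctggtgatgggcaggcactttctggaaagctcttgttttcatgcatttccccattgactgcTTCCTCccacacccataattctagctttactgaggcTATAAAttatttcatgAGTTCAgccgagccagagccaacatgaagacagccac
Dhrs3, chr4:144892577-144892876: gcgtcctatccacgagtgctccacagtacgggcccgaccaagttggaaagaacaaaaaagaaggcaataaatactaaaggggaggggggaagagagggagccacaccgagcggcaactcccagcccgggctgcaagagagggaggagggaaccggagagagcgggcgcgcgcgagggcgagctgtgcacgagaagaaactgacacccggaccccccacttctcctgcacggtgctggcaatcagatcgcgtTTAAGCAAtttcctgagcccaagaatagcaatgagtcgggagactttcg

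The motifs searched on both strands were AGGTCA and AGTTCA (single hexamers that nuclear receptors read), TTCNNNGAA (STAT), GAGGAA (the core read by PU.1), TTGCNNAA (C/EBP), TGGGAA (RBPJ), TGANTCA (AP-1) and TATAAA (the TATA box). The Wfdc17 window held TTCCTC, which is GAGGAA on the minus strand, TATAAA and AGTTCA, with no overlap among them. Counted from the RefSeq start, they began at -39, -3 and 13, in that order. The RefSeq start lies 65 bases downstream of the start in GENCODE M21, so each of these matches lies downstream of the GENCODE start. The first Dhrs3 window held 1 match, TTAAGCAA, which is TTGCNNAA on the minus strand. Among 32851 promoters of the same length, GAGGAA occurred in 28.3%, TATAAA in 13.6%, AGTTCA in 14.0% and TTGCNNAA in 10.8%. The printed Wfdc17 and Dhrs3 windows shared no motif, and GC made up 42% of the Wfdc17 window and 58.7% of the Dhrs3 window, against a median of 52.7% over those promoters. A match is a string of letters and not evidence of binding.

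The libraries were similar in depth. The Jumonji library had 575 kept cells with 12809661 unique molecular identifiers (UMIs, tags that mark single RNA molecules) and a median of 22123 UMIs per cell, and the Renilla library had 608 kept cells with 14418743 UMIs and a median of 23528. No cell barcode was shared between them. Jmjd1c, the targeted gene, had 1435 UMIs in the Jumonji library and 2025 in the Renilla library, a log2 ratio of -0.33 (-0.42 to -0.23); counts of 3′ ends do not show whether the gene was edited. Among marker lists, all 5 primary granule genes were at least 1.5-fold lower in the Jumonji library, while the neutrophil list (7 of 8 measured) and the list of monocytes and macrophages (7 of 9 measured) were higher there by that much. Over the 9922 genes with 50 or more UMIs, 11.0% were higher and 9.04% lower by 1.5-fold or more. Of the lymphoid and the stromal and endothelial markers, Cd3e, Cd3g, Col1a2, Col3a1, Dcn and Cdh5 had no UMI in the Jumonji cells, while Nkg7 (27.9 CPM in the Jumonji and 27.2 CPM in the Renilla library), Pdgfrb (12.6 CPM in the Jumonji and 10.5 CPM in the Renilla library) and Pecam1 (6.71 CPM in the Jumonji and 3.26 CPM in the Renilla library) were detected in both libraries.

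Wfdc17, the WAP-domain gene, had 3600 UMIs in the Jumonji library, a level of 281 CPM (UMIs scaled to the same library total; 272 to 290). The Renilla library had 163 UMIs of it, a level of 11.3 CPM (9.64 to 13.2). It was 24.9-fold higher (21.2 to 29.3), a log2 ratio of 4.64 (4.41 to 4.87). The Renilla level rested partly on 2 cells: they held 60 of the 163 UMIs, or 36.8%. Without these 2 cells the Renilla level was 7.16 CPM and Wfdc17 was 39.2-fold higher in the Jumonji library (32.3 to 48.2).

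Nov, the CCN-family gene, had 1001 UMIs in the Jumonji library, a level of 78.1 CPM (73.4 to 83.1), and 61 UMIs in the Renilla library, a level of 4.23 CPM (3.24 to 5.43). That is 18.5-fold higher (14.3 to 24.3), a log2 ratio of 4.21 (3.83 to 4.60). Dhrs3, the retinaldehyde reductase, had 111 UMIs in the Jumonji library, a level of 8.67 CPM (7.13 to 10.4), and 3 UMIs in the Renilla library, a level of 0.208 CPM (0.0429 to 0.608). Its ratio of 41.6 is the least certain of the 3, with an interval of 13.9 to 205, because it rests on 3 Renilla UMIs. All 3 genes were more than 8-fold higher, as were 0.580% of the 8959 genes with at least 100 UMIs over both libraries; 4.65% of those genes were higher by 2-fold or more. By ratio, Dhrs3 was in place 5, Wfdc17 in place 11 and Nov in place 13 of these 8959 genes, and since the genes were chosen for this ratio, nothing is read from their places.

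**Figure D1:**
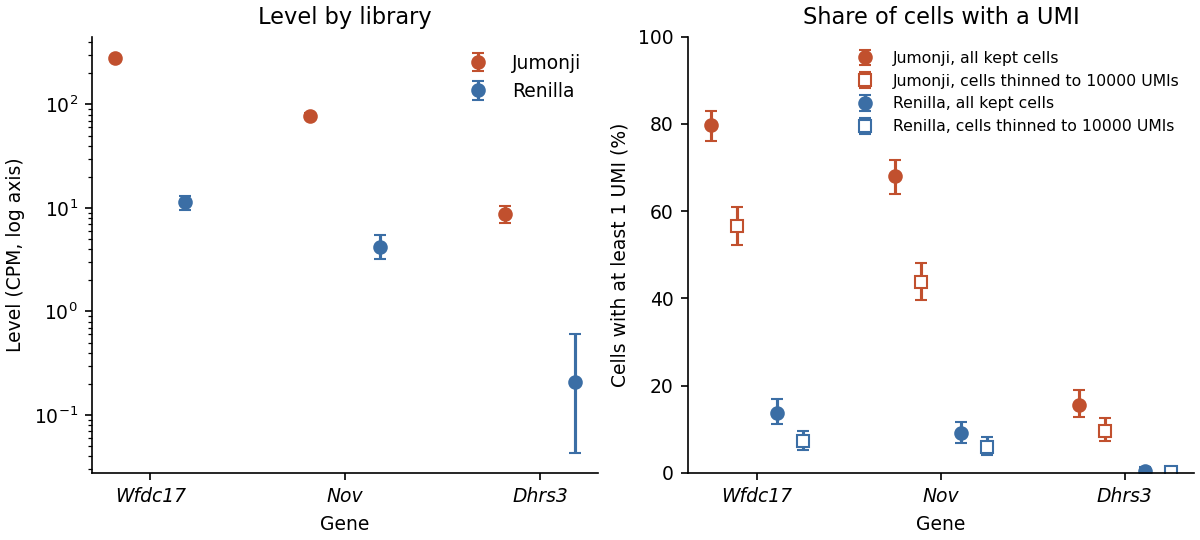
Left, level of each gene in the Jumonji and Renilla libraries (CPM, log axis), with 95% Poisson intervals. Right, percent of cells with at least 1 UMI, over all kept cells (filled circles) and over cells thinned to 10000 UMIs (open squares), with 95% Clopper-Pearson intervals; Wfdc17 was found in 79.7% of Jumonji cells and 13.8% of Renilla cells.

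Wfdc17 and Nov were detected in most Jumonji cells, and Dhrs3 in a minority. Wfdc17 had at least 1 UMI in 458 of 575 Jumonji cells, 79.7% (76.1 to 82.9), against 84 of 608 Renilla cells, 13.8% (11.2 to 16.8). Nov had at least 1 UMI in 391 Jumonji cells, 68% (64.0 to 71.8), against 55 Renilla cells, 9.05% (6.89 to 11.6). Dhrs3 had at least 1 UMI in 90 Jumonji cells, 15.7% (12.8 to 18.9), against 3 Renilla cells, 0.493% (0.102 to 1.44). These shares depend on depth and on which cells are counted. In 3 equal groups of Jumonji cells, from the shallowest to the deepest, Wfdc17 was found in 87.5%, 72.3% and 79.2%. Nov was found in 70.3%, 66.0% and 67.7%, and Dhrs3 in 24.5%, 12.6% and 9.90%. Each cell was also thinned to 10000 UMIs, which left 520 Jumonji and 579 Renilla cells. The 55 Jumonji cells left out included 38 of cluster 6, a shallower cluster described below. After thinning, the share with Wfdc17 was 56.5% in Jumonji and 7.25% in Renilla cells. The share with Nov was 43.8% in Jumonji and 5.87% in Renilla cells, and that with Dhrs3 was 9.62% in Jumonji and 0.173% in Renilla cells. A cell without a UMI is therefore a cell in which the transcript was not detectable at this depth, and RNA free in the cell suspension can also give single UMIs, whose part was not tested.

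Within the Jumonji library Wfdc17 was very unevenly spread. Among 575 cells, 117 had no Wfdc17 UMI, 118 had 1, 152 had 2 to 4, 80 had 5 to 9, 59 had 10 to 19 and 49 had 20 or more, up to 85. The 58 cells with the most Wfdc17 UMIs held 52.4% of them. In the Renilla library 524 cells had none, 69 had 1 and 13 had 2 to 4, and the remaining 2 cells had 38 and 22. Outside those 2 cells, no Renilla cell had more than 4.

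The 2 Wfdc17-high Renilla cells were in the range of the high Jumonji cells for this gene. They had 38 of 22198 and 22 of 12851 UMIs, 1712 CPM in each. Both fell in cluster 6, the cluster of cells with the most Ctss, which was drawn without Wfdc17. Both were in G1 by their cell cycle scores and neither was marked as a doublet by Scrublet. Neither cell had a UMI of Nov, Dhrs3, Ctss (cathepsin S, a lysosomal protease of macrophages) or S100a8 (a neutrophil and monocyte calcium-binding protein), and they had 5 and 0 UMIs of Mpo, the myeloperoxidase of primary granules.

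Nov was spread more evenly. In the Jumonji library 184 cells had none, 166 had 1, 172 had 2 to 4, 45 had 5 to 9 and 8 had 10 or more, up to 15, and the top 58 cells held 40.1% of the UMIs. In the Renilla library 553 cells had none, 50 had 1 and 5 had 2 to 4, with a highest value of 3. Dhrs3 was sparse throughout: 485 Jumonji cells had none, 76 had 1 and 14 had 2 to 4, while 605 Renilla cells had none and 3 had 1.

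**Figure D2:**
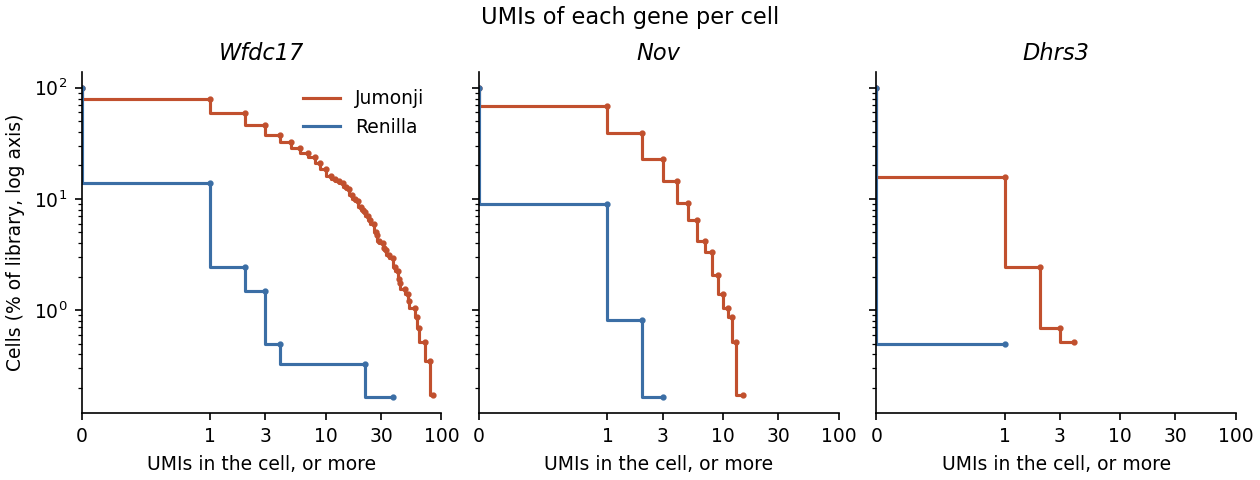
Percent of cells (log axis) with at least the number of UMIs on the x axis, for each gene, in Jumonji and Renilla cells. The Wfdc17 curve of Jumonji cells reaches 85 UMIs, and the Renilla curve ends at the cells with 22 and 38 UMIs.

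Most Jumonji cells held more than 1 of the genes, and most Renilla cells held none. Since the genes were chosen as strongly higher in the Jumonji library, this contrast and that of the shares above follow largely from the choice. All 3 were detected in 61 of 575 Jumonji cells, 10.6% (8.21 to 13.4), against 1 of 608 Renilla cells. The commonest pattern in the Jumonji library was Wfdc17 with Nov and no Dhrs3, in 258 cells (44.9%). Wfdc17 was found on its own in 120 cells (20.9%) and Nov on its own in 65 (11.3%), while Dhrs3 on its own was found in 3. Just 42 Jumonji cells (7.30%) held none of the genes, against 477 Renilla cells (78.5%). In the Renilla library 74 cells held Wfdc17 alone, 45 held Nov alone, 2 held Dhrs3 alone, and 10 held 2 or more of the genes.

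**Figure D3:**
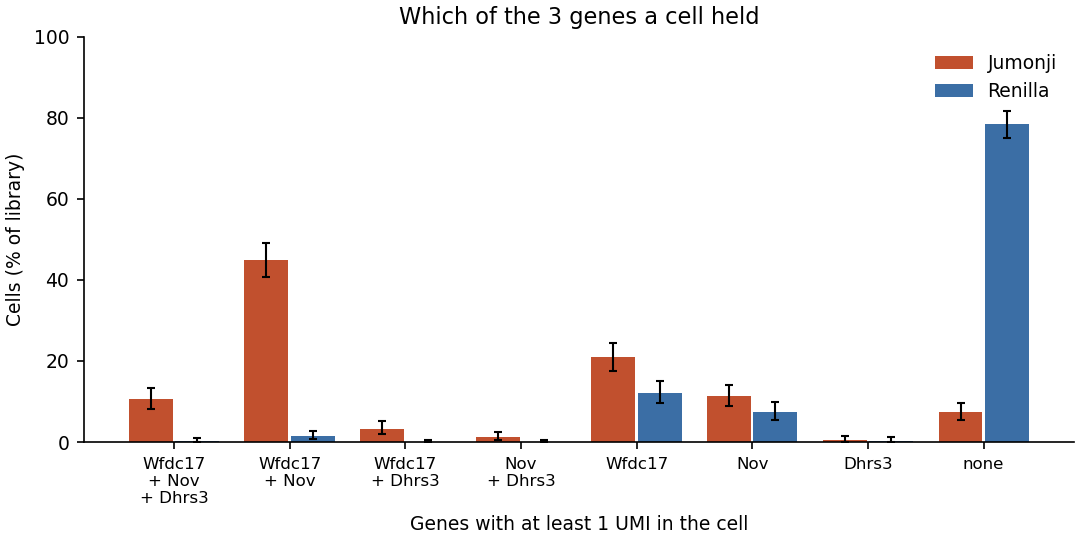
Percent of the 575 Jumonji and 608 Renilla cells with each combination of the 3 genes (at least 1 UMI), with 95% Clopper-Pearson intervals. Wfdc17 with Nov is the commonest combination in Jumonji cells, at 44.9%, and none of the genes is the commonest in Renilla cells, at 78.5%.

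Cells with Dhrs3 were mostly cells with Wfdc17. Of the 90 Jumonji cells with Dhrs3, 80 (88.9%) also held Wfdc17 and 68 (75.6%) also held Nov. At equal depth, in thinned Jumonji cells, Wfdc17 was found in 41 of 50 cells with Dhrs3 (82%) and in 253 of 470 cells without it (53.8%). Dhrs3 was found in 41 of 294 cells with Wfdc17 (13.9%; 10.2 to 18.4) and in 9 of 226 cells without it (3.98%; 1.84 to 7.42), and these intervals do not overlap. Nov was found in 146 of 294 cells with Wfdc17 (49.7%; 43.8 to 55.5) and in 82 of 226 cells without it (36.3%; 30.01 to 42.9), and these intervals do not overlap either. Over all kept Jumonji cells, which differ in depth, the intervals of both genes did overlap. Dhrs3 was found in 17.5% (14.1 to 21.3) of cells with Wfdc17 and 8.55% (4.17 to 15.2) without it. For Nov the shares were 69.7% (65.2 to 73.8) and 61.5% (52.1 to 70.4).

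The number of cells with all 3 was compared with the product of the 3 separate shares, the number to be found if the genes were spread over cells without regard to each other. In the thinned Jumonji cells all 3 were found in 25 of 520 cells, 4.81% (3.14 to 7.02), against a product of 12.4 cells. Over all kept Jumonji cells the count was 61, against a product of 48.7. In 3 equal groups of cells by depth the counts were 32, 17 and 12 from the shallowest to the deepest, against products of 28.9, 11.4 and 10.2. The product lay below the interval of the count in the thinned cells, and inside it over all kept cells and in each of the 3 depth groups.

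Cells were grouped into 6 clusters without the 3 genes, which were among the 5562 genes left out, and the clusters were numbered by their level of Ctss. No cluster was given a cell type name. Cluster 6, with the most Ctss, held 109 Jumonji cells (18.96%) and 15 Renilla cells (2.47%). Its cells were shallower, with a median of 11531 UMIs in the Jumonji library, against 24466 in the other Jumonji cells.

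In Jumonji cells cluster 6 had the highest level of all 3 genes. Wfdc17 was at 1538 CPM (1472 to 1606) in cluster 6, against 136 CPM (129 to 143) in the Jumonji cells outside it, 11.3-fold higher (10.6 to 12.1). Nov was at 215 CPM (191 to 242) in cluster 6 and 62.3 CPM (57.8 to 67.0) in the others, 3.46-fold higher (3.01 to 3.97). Dhrs3 was at 38.4 CPM (28.6 to 50.5) in cluster 6 and 5.23 CPM (3.99 to 6.73) in the others, 7.35-fold higher (4.96 to 10.9). Cluster 6 held 56.7% of the Wfdc17, 28.6% of the Nov and 45.9% of the Dhrs3 UMIs of the Jumonji library. Where the clusters were drawn more coarsely, at resolution 0.3, the cluster with the most Ctss held 165 Jumonji cells, and its log2 ratio over the others was 2.80 for Wfdc17, against 3.502 for cluster 6.

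In the Jumonji library the proportion of Wfdc17 to Nov differed between clusters. There were 7.14 Wfdc17 UMIs per Nov UMI in cluster 6 of the Jumonji library and 2.18 in its other clusters. In the Renilla library the proportion was 9.43 in cluster 6, on 7 Nov UMIs, and 1.80 in the others. The 2 Wfdc17-high Renilla cells held 60 of the 66 Wfdc17 UMIs of that cluster, and without them its proportion was 0.857, below that of the others.

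Cells of cluster 6 also had more of the monocyte and macrophage list (13 genes, 10 of them higher in cluster 6 of the Jumonji library, as were 41.3% of the 9922 genes with 50 or more UMIs), which summed to 3452 CPM inside and 923 CPM outside it in Jumonji cells, and to 1637 CPM inside and 628 CPM outside it in Renilla cells. Ctss, which numbered the clusters, is in that list. Of its genes, Cx3cr1, Klf4 and F13a1 were at 0 in cluster 6 of the Jumonji library. The neutrophil list (12 genes, 8 of them higher) summed to 1499 CPM inside and 874 CPM outside cluster 6 in Jumonji cells, with Ltf and Retnlg at 0 in both. The primary granule list (5 genes, none higher) summed to 579 CPM inside and 1950 CPM outside it. In Jumonji cells the sums of the dendritic, mast and basophil, eosinophil and megakaryocyte lists were also higher in cluster 6. The megakaryocyte list summed to 36.9 CPM inside and 18.5 CPM outside. The lymphoid, erythroid and stromal and endothelial lists were lower, at 9.04, 1.51 and 18.1 CPM inside and 30.3, 2.09 and 19.6 CPM outside. The dendritic list (5 genes, 3 of them higher) summed to 82.9 CPM inside, with Cd74 at 70.1 CPM, and 2.003 CPM outside cluster 6. The mast and basophil list (5 genes, 1 of them higher) summed to 34.7 CPM inside, all of it Cpa3, and 5.14 CPM outside. The eosinophil list (7 genes, 5 of them higher) summed to 179 CPM inside and 71.2 CPM outside. In it Prg2 was at 97.2 CPM inside and 9.06 CPM outside, while Epx was lower inside, at 5.27 CPM against 10.8 CPM. The part of these markers and of depth in the levels of the 3 genes was not tested.

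The order of clusters was similar for Wfdc17 and Nov in the Jumonji library, though clusters 2 and 3, and clusters 4 and 5, changed places. In Jumonji cells Wfdc17 was at 27.4, 38.7, 84.5, 155, 147 and 1538 CPM in clusters 1 to 6; the interval of cluster 1, which held 5 cells, overlapped those of clusters 2 and 3, and the intervals of clusters 4 and 5 overlapped. In Renilla cells it was at 6.12, 5.04, 6.90, 9.04, 7.60 and 228 CPM, with overlapping intervals among clusters 1 to 5. The value in cluster 6 rested on the 2 Wfdc17-high Renilla cells: its other 13 cells were at 23.6 CPM (8.65 to 51.3), on 6 UMIs. Nov was at 21.9, 31.6, 28.2, 62.5, 71.3 and 215 CPM in clusters 1 to 6 of the Jumonji library, against 4.08, 3.02, 4.10, 2.85, 4.56 and 24.2 CPM in the Renilla library. In the Jumonji library the Nov intervals of clusters 1 to 3 overlapped, as did those of clusters 1 and 4 and of clusters 4 and 5.

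Dhrs3 was at 5.48, 1.02, 6.03, 6.66, 4.90 and 38.4 CPM in clusters 1 to 6 of the Jumonji library. Clusters 1 to 5 overlapped in their intervals, and clusters 1 to 3 held 5, 35 and 20 Jumonji cells. In the Renilla library Dhrs3 had 1 UMI each in clusters 3, 5 and 6 and none in clusters 1, 2 and 4.

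**Figure D4:**
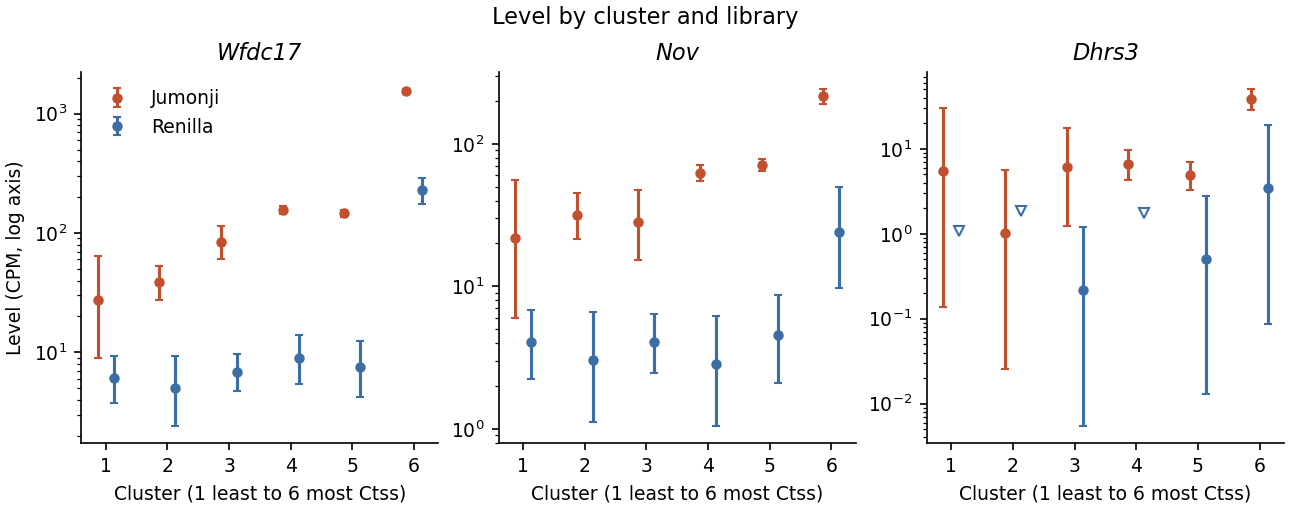
Level of each gene (CPM, log axis) in clusters 1 to 6 of the Jumonji and Renilla libraries, with 95% Poisson intervals; open triangles mark the upper bound where no UMI was found. Cluster 6 of the Jumonji library is highest for each gene, at 1538, 215 and 38.4 CPM.

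The difference between libraries was not confined to cluster 6. Outside it, Wfdc17 was at 136 CPM in Jumonji cells and 6.87 CPM in Renilla cells, a log2 ratio of 4.31 (4.01 to 4.62). Nov was at 62.3 CPM in Jumonji cells and 3.82 CPM in Renilla cells, a log2 ratio of 4.03 (3.63 to 4.45). Dhrs3 was at 5.23 CPM in Jumonji cells (60 UMIs) and 0.142 CPM in Renilla cells (2 UMIs), a log2 ratio of 5.21 (3.29 to 8.28). Within clusters 1 to 6 the log2 ratio of Wfdc17 was 2.16, 2.94, 3.61, 4.10, 4.27 and 2.75, and that of Nov was 2.43, 3.39, 2.78, 4.45, 3.97 and 3.16. In cluster 1 these ratios rested on 5 Wfdc17 and 4 Nov UMIs of 5 Jumonji cells. Their intervals there were 0.40 to 3.61 for Wfdc17 and 0.36 to 4.10 for Nov. With every cluster weighted alike, the log2 ratio over the libraries was 2.92 for Wfdc17, 3.33 for Nov and 3.90 for Dhrs3. Without the 2 Wfdc17-high Renilla cells the log2 ratio of Wfdc17 was 6.03 within cluster 6 and 5.09 with every cluster weighted alike. For Dhrs3 a ratio could be formed in clusters 3, 5 and 6, where it was 4.81 (1.17 to 10.5), 3.27 (0.68 to 8.63) and 3.48 (0.93 to 8.81).

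Inside cluster 6 cells with all 3 genes were about as many as the product of the shares, and outside it somewhat more. Inside, all 3 were found in 25 of 109 Jumonji cells, against a product of 25.7 cells. Wfdc17 was found in 102 of those 109 cells (93.6%). The count inside can therefore show little about a link of Wfdc17 with Nov or Dhrs3. Outside, all 3 were found in 36 of 466 Jumonji cells, 7.73% (5.47 to 10.5). The product was 26.9 cells, or 5.78%, which lies inside that interval. Outside cluster 6 Nov was found in 69 of 110 Jumonji cells without Wfdc17 (62.7%; 53.0 to 71.8) and in 241 of the 356 with it (67.7%; 62.6 to 72.5), intervals that overlap. In thinned Jumonji cells outside cluster 6, Dhrs3 was found in 20 of 226 cells with Wfdc17 (8.85%; 5.49 to 13.3) and in 8 of 223 without it (3.59%; 1.56 to 6.95), intervals that also overlap. Inside cluster 6 it was found in 21 of 68 thinned Jumonji cells with Wfdc17 and in 1 of 3 without it.

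When thinned Jumonji cells were grouped by their Wfdc17 UMIs, Nov and Dhrs3 were higher in the groups with more Wfdc17. In the 226 cells with none, the 151 with 1 to 2, the 97 with 3 to 9 and the 46 with 10 or more Wfdc17 UMIs in 10000, Nov was at 49.6, 57.0, 121 and 172 CPM. Its share of cells with a UMI was 36.3%, 41.1%, 59.8% and 56.5%. Dhrs3 was at 3.98, 5.30, 13.4 and 65.2 CPM, and its share was 3.98%, 5.30%, 11.3% and 47.8%. The step in Dhrs3 therefore lay at the cells with the most Wfdc17, while Nov was higher from 3 UMIs on. The share of cells in cluster 6 ran alongside, at 1.33%, 7.95%, 20.6% and 78.3%.

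**Figure D5:**
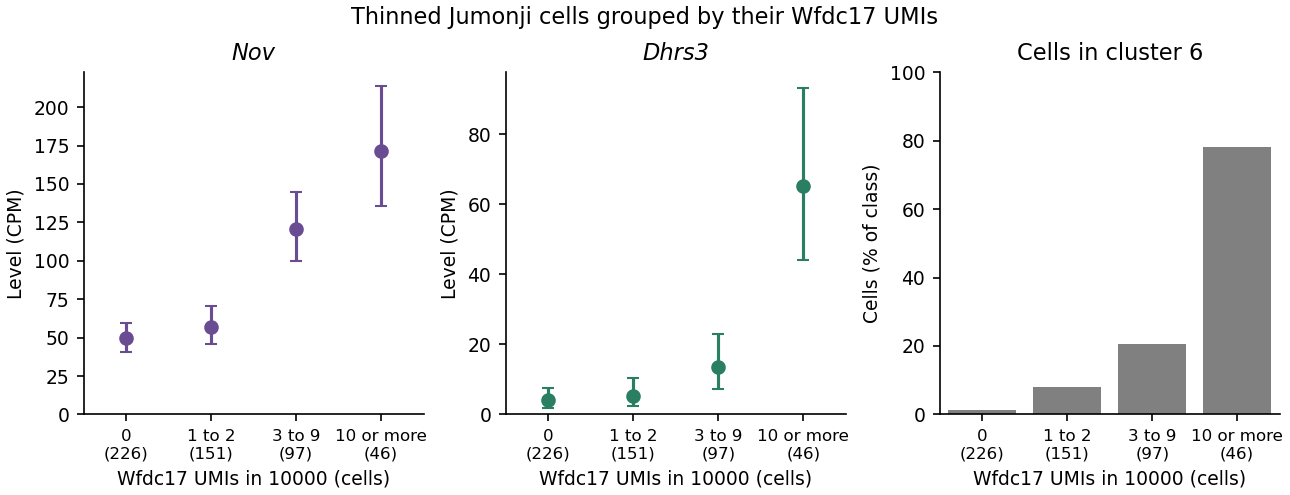
Level of Nov (left) and Dhrs3 (middle) in thinned Jumonji cells grouped by their Wfdc17 UMIs, with 95% Poisson intervals, and percent of each group in cluster 6 (right); the number of cells is in parentheses. Dhrs3 is at 65.2 CPM in the 46 cells with 10 or more Wfdc17 UMIs, which are 78.3% in cluster 6.

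Across single cells the genes were weakly related. Over 520 thinned Jumonji cells of 1 library, Pearson's r of log counts was 0.28 between Wfdc17 and Nov, 0.40 between Wfdc17 and Dhrs3 and 0.15 between Nov and Dhrs3. Over the 449 cells outside cluster 6 the values were 0.14, 0.17 and 0.05. Over the 71 thinned cells inside it they were 0.21, 0.50 and 0.11, so that of Wfdc17 with Dhrs3 was higher inside. In counts this sparse such values describe the cells and are no finding.

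The phase of the cell cycle ran with cluster 6. Phases were called in the 520 Jumonji cells with at least 10000 UMIs; the 55 shallower cells left out included 38 of the 109 cells of cluster 6. In these Jumonji cells Wfdc17 was at 687 CPM in G1, 133 in S and 138 in G2/M. Nov was at 111, 57.2 and 62.1 CPM, and Dhrs3 at 20.5, 5.52 and 4.71 CPM, in the same phases. Outside cluster 6, levels in G1 and in S or G2/M did not differ beyond their intervals: 131 (112 to 152) and 133 (126 to 140) CPM for Wfdc17, 58.0 (45.7 to 72.4) and 60.2 (55.5 to 65.2) CPM for Nov, and 6.77 (3.10 to 12.9) and 4.99 (3.70 to 6.58) CPM for Dhrs3.

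The genes most like each member were ranked by Pearson's r over the 520 thinned Jumonji cells, among 7418 genes. For Wfdc17 they were Slfn2 (0.66), Ctss (0.66), Lsp1 (0.62), Cfp (0.61), Cd52 (0.59), Napsa (0.59), Lgals3 (0.58) and Lilrb4a (0.56). Slfn2 encodes a Schlafen family protein, Ctss cathepsin S, Lsp1 a leukocyte actin-binding protein, Cfp the complement factor properdin, Cd52 a leukocyte surface glycoprotein, Napsa an aspartic protease, Lgals3 galectin-3 and Lilrb4a an inhibitory receptor of myeloid cells. Outside cluster 6 the same 8 genes had r of 0.28 to 0.50 with Wfdc17.

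For Nov the 8 genes were Lgals3 (0.31), Lsp1, S100a4 (a calcium-binding protein), Cd52, Cst3 (cystatin C, a cysteine protease inhibitor), Pira2 (a paired immunoglobulin-like receptor), Napsa and Ypel3 (0.29). Lgals3, Lsp1, Cd52 and Napsa were thus among the 8 of both genes. For Dhrs3 the 5 genes were Wfdc17 (0.40), Ctss (0.38), Cd9 (a tetraspanin; 0.37), Ecm1 (an extracellular matrix protein; 0.36) and Lsp1 (0.35). Wfdc17 was in place 1 for Dhrs3 and place 14 for Nov. Dhrs3 was in place 49 and Nov in place 151 for Wfdc17. Over the cells outside cluster 6 the same places were 12, 101, 154 and 263, in that order. The points share a library. Outside cluster 6 the r of the named genes was 0.14 to 0.24 with Nov and 0.06 to 0.17 with Dhrs3.

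Nov was the only CCN family gene with counts to compare. Of the 6 family members, Cyr61, Ctgf, Wisp1 and Wisp3 had no UMI in either library and Wisp2 had 1. Among genes for its known partners, 8 of 9 were measured with at least 50 UMIs; in Jumonji cells 3 were higher and none lower by 1.5-fold or more, against 11.0% higher and 9.04% lower over all genes measured so. The median log2 ratio was 0.43, against -0.06 over all 9922 genes with 50 UMIs. The receptors Notch1 and Notch2 had log2 ratios of 1.64 and 1.23. The integrin subunit Itgb3 had 147 UMIs in the Jumonji library and 32 in the Renilla library, a log2 ratio of 2.37, while Itgb1 and Itgb5, the partners with the most UMIs, had log2 ratios of -0.03 and 0.50. Hes1, a Notch target, had 0 and 3 UMIs in the Jumonji and Renilla libraries.

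Among 12 WAP-domain genes, 4 were measured, with a median log2 ratio of 0.68 that includes Wfdc17. With a minimum of 200 UMIs just Wfdc17 (4.64) and Slpi (0.29) were left, and the median of 2.46 is their midpoint. Wfdc17 and Wfdc21 (log2 ratio 1.07) were higher in Jumonji cells by 1.5-fold or more, and none was lower by as much, beside the same 11.0% and 9.04% over all genes. Slpi, the secretory leukocyte protease inhibitor, had 25117 UMIs in the Jumonji library and 23067 in the Renilla library, a log2 ratio of 0.29. Wfdc18 was under the minimum, with 25 UMIs in the Jumonji library and 1 in the Renilla library.

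Of 26 genes of retinoid metabolism, the pathway of Dhrs3, 11 were measured; in Jumonji cells 5, Dhrs3 among them, were higher and 2 lower by 1.5-fold or more, against 11.0% and 9.04% of all genes measured so, with a median log2 ratio of 0.30. Besides Dhrs3 the higher ones were Dhrs7 (1.28) and Dhrs9 (1.17), dehydrogenases of the same superfamily, Rdh12 (0.59), a retinol dehydrogenase, and Dgat1 (1.02), an acyltransferase that can esterify retinol. The lower ones were Retsat (-0.998), which saturates retinol, and Rdh13 (-0.83), a mitochondrial member of the family. Dhrs4 had the most UMIs of the list, 534 in the Jumonji library and 706 in the Renilla library, with a log2 ratio of -0.23. The retinaldehyde dehydrogenases Aldh1a1 and Aldh1a2, which make retinoic acid, and Lrat, which esterifies retinol, had no UMI in either library.

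Of 6 retinoid receptor genes, 3 were measured, with a median log2 ratio of 1.05. Rara was at 26.5 CPM in the Jumonji library and 5.90 CPM in the Renilla library, a log2 ratio of 2.17. Rarg had a log2 ratio of 1.05 and Rxrb one of -0.10. Of 11 genes that respond to retinoic acid, 4 were measured: Dhrs3 itself and Tgm2, a transglutaminase (92 UMIs in the Jumonji library, 12 in the Renilla library; log2 ratio 3.11), were higher, Tgif1, a homeobox repressor, was lower (-1.09), and Cebpe, a granulocyte transcription factor, was at 0.43. Cyp26a1, which degrades retinoic acid, had 1 and 2 UMIs in the Jumonji and Renilla libraries, and Rarb had none. By 1.5-fold or more, 2 of the 3 receptor genes were higher and none lower, and 2 of the 4 response genes were higher and 1 lower, beside the same 11.0% and 9.04%. Dhrs3 is in the metabolism and the response list, so their counts are not separate, and it was chosen for its ratio.

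Several neighbours of Wfdc17 were also higher in the Jumonji library. Within 200 kb of Wfdc17, 7 genes were measured with at least 50 UMIs, and 5 of them were at least 1.5-fold higher, against 11.0% of all genes measured so. Ccl6, Ccl3, Ccl9 and Ccl4 encode chemokines of the CC family. Ccl6 had 610 Jumonji and 40 Renilla UMIs (log2 ratio 4.10), Ccl3 306 Jumonji and 61 Renilla UMIs (2.50), Ccl9 470 Jumonji and 158 Renilla UMIs (1.74) and Ccl4 33 Jumonji and 20 Renilla UMIs (0.89). Wfdc21, 40.7 kb away, had a log2 ratio of 1.07, while Heatr6 (0.47) and Taf15 (-0.18) were within 1.5-fold. Over thinned Jumonji cells r with Wfdc17 was 0.44 for Ccl9, 0.25 for Ccl3, 0.12 for Ccl6 and -0.03 for Wfdc21. No neighbour of Nov within that distance was measured, and the single one of Dhrs3, Vps13d, had a log2 ratio of 0.13.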

How the data were processed

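Single-cell RNA libraries of 1 Jumonji and 1 Renilla culture were prepared by 10x Genomics 3′ chemistry (Chromium v2), per the labels' protocols. The authors deposited raw UMI counts per gene and barcode, made with Cell Ranger 1.3.1 on mm10, per the submitters' processing notes; the annotation release is not given in the sources used here, nor is the rule for calling cells.

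Barcodes were kept from 500 genes on and up to 10% mitochondrial UMIs, 575 of 652 in the Jumonji and 608 of 651 in the Renilla library. Counts were summed per library and divided by its total (CPM). Sums have exact Poisson, shares exact Clopper-Pearson and ratios exact conditional binomial intervals at 95%. They cover counting error only. Thinning to 10000 UMIs left out 55 Jumonji and 29 Renilla cells. Scrublet marked 4 Jumonji cells (0.696%) and 10 Renilla cells (1.64%), which were kept. Clustering used scanpy 1.11.5 and leidenalg 0.10.2 (2000 variable genes, 30 components, 15 neighbours, resolution 0.6), without mitochondrial, ribosomal and cell cycle genes and genes at least 1.5-fold apart between the libraries. Positions come from GENCODE M21, which held 27722 of the 27998 gene identifiers.

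The members and the gene lists were chosen with earlier results of these data known. Named genes are the members, the 8 genes most like Wfdc17 and Nov and the 5 most like Dhrs3, list genes at least 1.5-fold apart with 50 UMIs, the 2 of each list with the most UMIs, and measured neighbours; other list genes were named after their values were seen. Ratio and thinning steps were tested on simulated data. The alternatives tried were other cell filters, thinning, doublets, cluster 6, weights of cells and clusters, size factors, UMI minimums and clustering settings.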

Additional observations from a re-analysis of the deposited data

Results flagged for a closer look

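Barcodes above 10% mitochondrial UMIs, which were left out of the kept cells and entered just the alternative with all deposited barcodes, also held Wfdc17 and Nov in the Jumonji library. Wfdc17 was at 1079 CPM (982 to 1183) in the 77 excluded Jumonji barcodes, found in 63 of them, while the 43 excluded Renilla barcodes had no UMI of it, which allows up to 14.6 CPM by the Poisson interval. Nov was at 389 CPM (332 to 453) in the excluded Jumonji barcodes, found in 57 of them, against 2 UMIs, or 7.92 CPM (0.959 to 28.6), in the excluded Renilla barcodes. Dhrs3 had 14 UMIs, or 33.2 CPM (18.1 to 55.7), in the excluded Jumonji barcodes and 1 UMI in the excluded Renilla barcodes. Wfdc17, Nov and Dhrs3 were at 281, 78.1 and 8.67 CPM in the kept Jumonji cells. The median depth was 4804 UMIs in the excluded Jumonji barcodes and 5694 in the excluded Renilla barcodes. In the same barcodes Ctss was at 256 CPM in the Jumonji and 19.8 CPM in the Renilla library, and Mpo at 434 CPM in the Jumonji and 4660 CPM in the Renilla library. Their part in the levels of Wfdc17 and Nov was not tested.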

How the results depend on the processing

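No paired analysis was possible because each group has 1 library. The log2 ratio ranged over 10 alternatives from 2.92 to 5.29 for Wfdc17, 3.33 to 4.62 for Nov and 3.90 to 6.06 for Dhrs3. Outside the counting interval fell, for Wfdc17, 4.31 without cluster 6, 5.01 with every cell weighted alike, 2.92 with every cluster weighted alike and 5.29 without the 2 Wfdc17-high Renilla cells, an alternative chosen after seeing the data. For Nov they were 3.65 in thinned cells, 4.62 with every cell and 3.33 with every cluster weighted alike. In Jumonji cells thinning gave shares of 56.5%, 43.8% and 9.62% for Wfdc17, Nov and Dhrs3 and 4.81% for all 3, and leaving out cluster 6 gave 11.4% for Dhrs3 and 7.73% for all 3. The count of 417 genes at least 2-fold higher became 194 with a minimum of 500 UMIs. With a minimum of 1 UMI it came to 1881, but a count of 0 was set to 3 UMIs. That number therefore takes in genes with no Jumonji UMI and 1 Renilla UMI, and is not a count of higher genes. No barcode was shared between the libraries, so leaving out shared barcodes changed nothing. Cluster 6 depended on settings: with resolution 0.3 or 1.0, or a random seed of 1 to 4 (chosen after seeing the data), the cluster with the most Ctss held 99 to 165 Jumonji cells, and its log2 ratio over the other Jumonji cells was 2.80 to 3.596 for Wfdc17, 1.35 to 1.89 for Nov and 2.32 to 2.91 for Dhrs3. Of the genes named as most like Wfdc17, Nov and Dhrs3, 5 of 8, 3 of 8 and 3 of 5 were also named in unthinned cells. The median of the retinoic acid response list, 1.77, became 0.43 with a minimum of 200 UMIs, where Cebpe was the only gene left. That of the WAP-domain list, 0.68, became 2.46 there, the midpoint of Wfdc17 and Slpi. With a minimum of 1 UMI these medians were 0.80 and 0.29. There too a count of 0 was set to 3 UMIs, so genes with 1 or 2 UMIs could enter with their direction turned. Leaving out the 2 Wfdc17-high Renilla cells moved the log2 ratio of Wfdc17 within cluster 6 to 6.03, against 2.75 with them.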
